A study of Mus musculus with 5 samples.

Results

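The natriuretic peptide receptor genes Npr1, Npr2 and Npr3, the phosphodiesterase genes Pde5a, Pde3a, Pde3b, Pde4b and Pde4d, the protein kinase gene Prkg1 and the G protein regulator gene Rgs2 were followed in adipocytes given plant polyphenols. The members were chosen by gene name, as all 26 probe sets whose platform annotation names 1 of these 10 genes and no other, out of 45037 probe sets on the array and 34945 that name a single gene. Npr3, Pde5a and Rgs2 had been selected on falls seen in these same arrays, so their differences to DMSO are a description and support nothing. The cells were C3H10T1/2, a mouse mesenchymal line, differentiated to fat cells by a standard protocol that is not detailed in the labels. They were treated for 6 h with butein, with sulfuretin or with the solvent DMSO, and in a further pair with resveratrol or with its own solvent control, named DMSO1 in the labels. Total RNA of each culture was measured on 1 Affymetrix expression array, 5 arrays in all. Doses are not given in the labels. As no group has a second array, no spread between replicates stands behind any value, and differences are described against all other probe sets in place of a test. In whole cultures, fewer cells of a type and less RNA per cell cannot be told apart.

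Natriuretic peptides raise cyclic GMP through 2 receptors with guanylate cyclase activity: Npr1 encodes the receptor of the atrial and B-type peptides and Npr2 the receptor of the C-type peptide. Npr3 encodes the clearance receptor, which binds the peptides, takes them into the cell and has no cyclase domain. Cyclic GMP activates protein kinase G, encoded by Prkg1, and in human fat cells this pathway stimulates lipolysis. Pde5a encodes an enzyme that breaks down cyclic GMP. Pde3b encodes the phosphodiesterase through which insulin lowers cyclic AMP and restrains lipolysis in adipocytes, Pde3a encodes its close relative, and Pde4b and Pde4d encode enzymes specific for cyclic AMP. Rgs2 encodes a protein that ends signalling by Gq proteins and that, in mouse vascular smooth muscle, is a target of protein kinase G.

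A probe set was counted when its highest intensity over the 5 arrays reached 8.39, the median probe set by mean log2 level. This held for 16 of the 26 member probe sets and 22340 of all single-gene probe sets. The array medians were 6.85 for DMSO, butein and sulfuretin, 11.5 for resveratrol and 11.1 for DMSO1. Some probe sets were thus counted through resveratrol or DMSO1 only, such as Pde5a 1460118_at. The shares of all counted probe sets and the gene lists below include such cases. Npr1 alone among the 10 genes had no counted probe set. All differences below are in log2 of the deposited intensity, the treated array minus its own solvent array, and a probe set was called at a difference of at least 1, which is 2-fold. With butein 7 of the 16 counted member probe sets were at least 2-fold lower than in DMSO, against 0.363% of all counted probe sets, and 0 were at least 2-fold higher, against 1.9% of all. With sulfuretin 3 were lower, against 0.0492% of all, and 0 were higher, against 0.192%. With resveratrol 0 were past 2-fold below DMSO1, against 0.0537% of all, and 0 above it, against 0.0627%. All of the member probe sets past 2-fold lower belonged to Npr3, Pde5a or Rgs2, so the choice of members fixed these counts for butein and sulfuretin and nothing is read from them. The median difference of the 16 counted probe sets was -0.55 with butein, -0.39 with sulfuretin and -0.086 with resveratrol. The median of all counted probe sets was 0 in each comparison. Of the 16, 10 belong to Npr3, Pde5a or Rgs2, and all 10 were lower with butein and with sulfuretin. The choice of members thus bears on these medians too, and nothing is read from them.

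**Figure D1:**
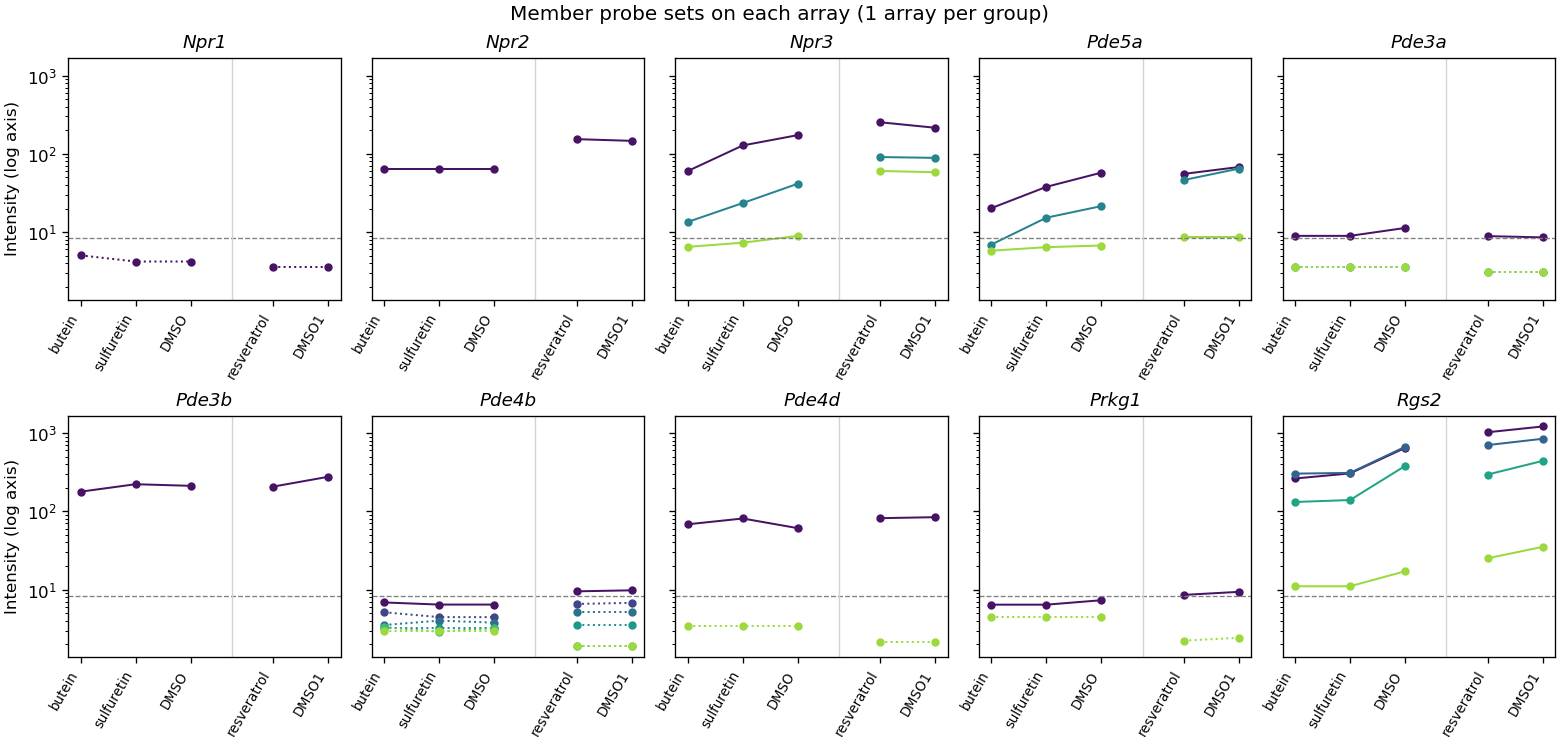
Intensity (log axis) of all 26 member probe sets on the 5 arrays, 1 panel per gene, with treated arrays left of their solvent array and the vertical line between the sets. Each line is a probe set, paler with lower mean level, dotted where it was not counted, and the dashed line is the level for counting, 8.39. Npr3, Pde5a and Rgs2 step down with butein, the other genes show no 2-fold step within a set, and Npr1 lies under the line on every array.

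The clearance receptor gene Npr3 (NCBI gene 18162) was lower with butein, less so with sulfuretin, and not lower with resveratrol. Its brightest probe set, 1435184_at, read 60.3 with butein and 128 with sulfuretin, against 173 in DMSO. On the resveratrol array it read 253, against 215 in DMSO1. The differences were -1.52 for butein, -0.44 for sulfuretin and 0.23 for resveratrol, so within its set the butein array was the lowest, and in the second set the resveratrol array was the higher.

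A second Npr3 probe set, 1448024_at, gave the same order within each set of arrays. It read 13.5 with butein and 23.5 with sulfuretin, against 41.5 in DMSO, and 90.9 with resveratrol, against 88.8 in DMSO1. Here butein was 3.08-fold and sulfuretin 1.76-fold lower than DMSO, while the resveratrol difference was 0.03. The third Npr3 probe set, 1450286_at, was dim in the first set, at 6.48 with butein and 7.32 with sulfuretin, against 8.95 in DMSO, and reached the counting level there in DMSO only. On the other 2 arrays it read 60.4 with resveratrol, against 58.2 in DMSO1. Its differences, -0.47 for butein and -0.29 for sulfuretin, rest on values close to the background of the array, and it was counted because of its levels on the DMSO, resveratrol and DMSO1 arrays.

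Pde5a (NCBI gene 242202), the gene of the phosphodiesterase that breaks down cyclic GMP, was lower with butein by about as much as Npr3 and was lower with all 3 compounds on both of its brighter probe sets. On 1458341_x_at it read 20.2 with butein and 37.9 with sulfuretin, against 57.5 in DMSO. The same probe set read 55.4 with resveratrol, against 67.9 in DMSO1. Its differences were -1.51 for butein, -0.60 for sulfuretin and -0.29 for resveratrol. The ending _x_at marks a probe set with probes that can also match other sequences.

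The second Pde5a probe set, 1455970_at, carries no such mark and read 6.93 with butein and 15.3 with sulfuretin, against 21.5 in DMSO. It read 46.3 with resveratrol, against 64.7 in DMSO1. Butein was 3.10-fold lower, from a value under the counting level, sulfuretin was 1.41-fold lower and resveratrol 1.40-fold lower. The third, 1460118_at, read 5.79 with butein and 6.42 with sulfuretin, against 6.74 in DMSO, and an identical 8.56 with resveratrol and in DMSO1. It crossed the counting level in the second set only and carries little on the size of any difference.

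Rgs2 (NCBI gene 19735) was lower by nearly the same amount with butein and with sulfuretin, unlike the pattern of Npr3 and Pde5a. Probe set 1419248_at read 263 with butein and 305 with sulfuretin, against 646 in DMSO. Probe set 1419247_at read 303 with butein and 310 with sulfuretin, against 666 in DMSO. Both placed the treated arrays between 0.407 and 0.472 of the solvent array, with the 2 compounds close together.

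Probe set 1447830_s_at of Rgs2 read 132 with butein and 139 with sulfuretin, against 380 in DMSO, the widest of the Rgs2 differences at -1.53 and -1.45. The dimmest, 1443250_at, read an identical 11.03 with butein and with sulfuretin, against 17.1 in DMSO, a difference of -0.64 for each. With resveratrol the 4 Rgs2 probe sets were lower by smaller amounts. They read 1023, 701, 295 and 25.1 in that order of naming, against 1212, 844, 440 and 35.2 in DMSO1, and the differences were -0.24, -0.27, -0.58 and -0.49. The ending _s_at marks a probe set shared by several transcripts.

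Among the 22340 counted probe sets, ranked from the lowest difference, the Rgs2 probe sets 1447830_s_at, 1419247_at and 1419248_at stood at ranks 2, 6 and 8 with sulfuretin, and at ranks 17, 51 and 31 with butein. The brighter Npr3 and Pde5a probe sets stood at ranks 12 to 19 with butein. With sulfuretin they stood at ranks 28 to 318. With resveratrol the nearest to the low end were Rgs2 1447830_s_at at rank 79, Rgs2 1443250_at at rank 135 and Pde5a 1455970_at at rank 139, whereas the 3 Npr3 probe sets were all on the high side of 0.

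**Figure D2:**
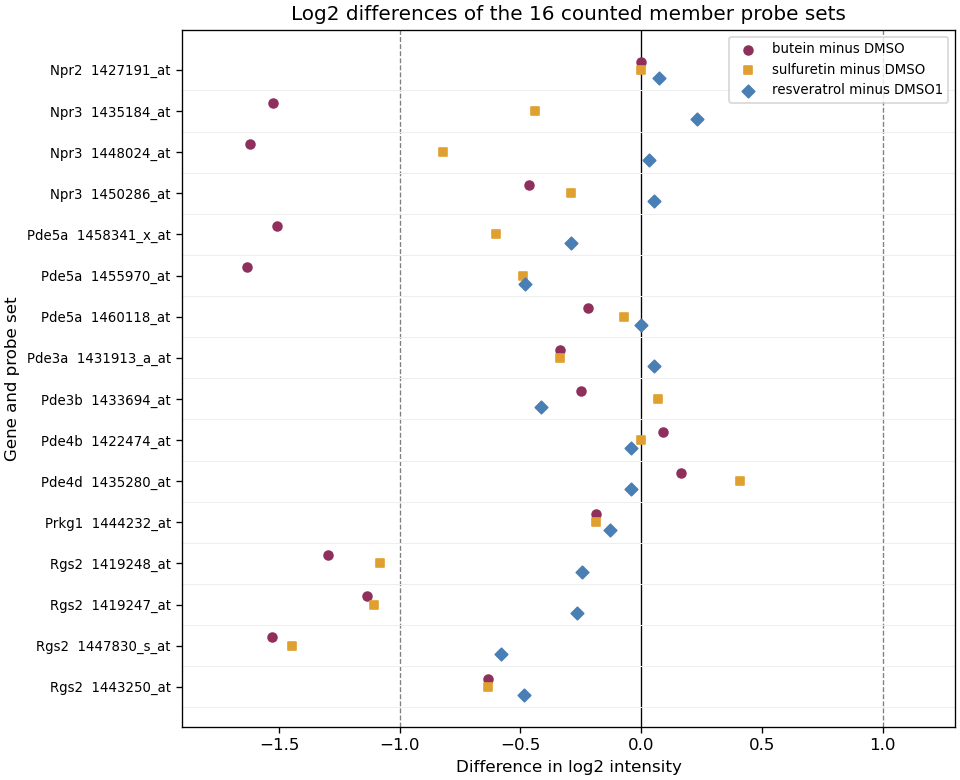
Difference in log2 intensity of the 16 counted member probe sets (rows) for butein and sulfuretin minus DMSO and for resveratrol minus DMSO1, with dashed lines at 2-fold. Butein and sulfuretin markers nearly coincide for Rgs2 and stand apart for the brighter Npr3 and Pde5a probe sets, and no resveratrol marker reaches the dashed lines.

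The starts of the 3 genes that differed by over 2-fold are shown because their levels moved down on the same array. The windows come from RefSeq on build GRCm38.p6 and hold 250 bases before to 50 after the annotated start, written 5′ to 3′ on the strand of the gene. Capitals mark TGACG, the first part of the cyclic AMP response element TGACGTCA, and TGACNNNGC, the core of the antioxidant response element, searched on both strands.
Npr3, chr15:11907322-11907621, minus strand: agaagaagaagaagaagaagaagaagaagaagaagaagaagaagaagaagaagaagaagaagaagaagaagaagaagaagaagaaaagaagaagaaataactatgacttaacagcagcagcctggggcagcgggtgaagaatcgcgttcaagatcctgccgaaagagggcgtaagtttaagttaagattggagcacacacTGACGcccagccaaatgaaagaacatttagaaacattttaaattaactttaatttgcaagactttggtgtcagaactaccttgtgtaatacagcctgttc
Pde5a, chr3:122728908-122729207, plus strand: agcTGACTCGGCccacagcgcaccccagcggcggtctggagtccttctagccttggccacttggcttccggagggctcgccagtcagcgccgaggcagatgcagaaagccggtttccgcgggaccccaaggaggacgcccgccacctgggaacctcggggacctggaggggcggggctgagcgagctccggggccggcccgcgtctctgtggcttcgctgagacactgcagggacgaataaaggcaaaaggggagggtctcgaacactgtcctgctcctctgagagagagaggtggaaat
Rgs2, chr1:144004100-144004399, minus strand: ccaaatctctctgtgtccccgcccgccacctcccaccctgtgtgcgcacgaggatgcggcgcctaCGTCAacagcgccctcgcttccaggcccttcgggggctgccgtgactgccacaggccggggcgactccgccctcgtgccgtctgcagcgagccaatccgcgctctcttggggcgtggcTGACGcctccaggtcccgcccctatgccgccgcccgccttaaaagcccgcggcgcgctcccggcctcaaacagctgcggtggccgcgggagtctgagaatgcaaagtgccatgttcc

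In the Npr3 window a TGACG begins 50 bases before the start. The Rgs2 window holds it at 2 places, 185 bases before the start on the opposite strand and 67 bases before it on the gene's own strand. The Pde5a window holds no TGACG and has 1 match to TGACNNNGC, beginning 247 bases before the start. Windows were found for 8 of the 10 members, 12 windows in all because Pde4b has 4 annotated starts and Prkg1 has 2. None of the 12 holds the full TGACGTCA, which 1.79% of all 32851 windows hold. TGACG was in 3 of the 12, against 20.8% of all windows, and TGACNNNGC in 2 of the 12, against 12.4% and the further match of each kind lay at a Pde4b start. A match describes letters only and gives no evidence of binding.

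Of the receptors with cyclase activity, only Npr2 was counted. Because Npr3 was picked for its fall, nothing is read from the contrast between Npr2 and Npr3. Npr2 (NCBI gene 230103), on probe set 1427191_at, read an identical 63.6 with butein, with sulfuretin and in DMSO, and 154 with resveratrol against 146 in DMSO1. Npr1 (NCBI gene 18160), on 1449160_at, read 5.05 with butein and 4.21 with sulfuretin, against 4.21 in DMSO, and 3.56 both with resveratrol and in DMSO1. Npr1 was therefore at or near the background on all 5 arrays, and no difference is drawn from it.

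Pde3b (NCBI gene 18576), the main adipocyte enzyme of its family, was well above the counting level and passed 2-fold in no treatment. Its only probe set, 1433694_at, read 178 with butein and 222 with sulfuretin, against 212 in DMSO, and 207 with resveratrol, against 276 in DMSO1. The resveratrol difference of -0.42 was the widest of the 3 for Pde3b, against -0.25 for butein and 0.07 for sulfuretin. With resveratrol it stood at rank 223 from the lowest of the 22340 counted probe sets, and with butein at rank 2754. Pde4d (NCBI gene 238871), on 1435280_at, was the one member with a counted probe set higher by more than 0.3 in any treatment. It read 68.3 with butein and 81.0 with sulfuretin, against 60.9 in DMSO, and 81.8 with resveratrol, against 84.2 in DMSO1, so that sulfuretin was 1.33-fold higher and the resveratrol difference was -0.04.

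The remaining members were dim. Pde3a (NCBI gene 54611), on 1431913_a_at, read an identical 8.95 with butein and with sulfuretin, against 11.3 in DMSO, and 8.89 with resveratrol, against 8.56 in DMSO1. Prkg1 (NCBI gene 19091), on 1444232_at, read an identical 6.42 with butein and with sulfuretin, against 7.32 in DMSO, and 8.56 with resveratrol, against 9.36 in DMSO1. Pde4b (NCBI gene 18578), on 1422474_at, read 6.85 with butein and 6.44 with sulfuretin, against 6.44 in DMSO, and 9.50 with resveratrol, against 9.79 in DMSO1. These 3 genes sat at the edge of the counting level, so that neither a change nor its absence can be read from them.

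The 10 member probe sets that were not counted were the 1 of Npr1, 5 of Pde4b (1422473_at, 1444731_at, 1442700_at, 1446577_at and 1447718_at), 2 of Pde3a (1431914_at and 1450284_at), 1459311_at of Pde4d and 1449876_at of Prkg1. Their intensities ran between 1.89 and 6.78 over the arrays. Differences among them lay between -0.10 and 0.26 with butein, between -0.16 and 0.085 with sulfuretin and between -0.12 and 0 with resveratrol. Many were exactly equal on the treated and the solvent array, 6 of 10 with butein and 8 of 10 with each of the other compounds.

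Exact equality within 1e-06 on the log2 scale was common on these arrays. Of all 26 member probe sets, 7 were equal between butein and DMSO, 10 between sulfuretin and DMSO and 9 between resveratrol and DMSO1. Most of these were dim: among the 16 counted member probe sets 1 was equal with butein, 2 with sulfuretin and 1 with resveratrol. Among all counted probe sets the equal shares were 33.4% with butein, 35.6% with sulfuretin and 35.3% with resveratrol. Each array held between 12090 and 13405 distinct values for its 45037 probe sets. Identical readings such as those of Npr2 were thus common on these arrays, and the step that made values equal was not tested.

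Sulfuretin is an aurone, in which the bridge of the chalcone butein is closed into a ring, and both carry a catechol. The 2 arrays share 1 set and the 6 h time, while the doses are not known, so the values are set side by side. Of the 16 counted member probe sets, 2 were at least 2-fold higher with sulfuretin than with butein, against 0.0895% of all counted probe sets, and 0 were at least 2-fold lower, against 0.949% of all. Both belong to genes picked for low readings on these arrays, so the choice of members bears on this count too and nothing is read from it. These 2 were Npr3 1435184_at at 2.12-fold and Pde5a 1455970_at at 2.20-fold, and Pde5a 1458341_x_at (1.87-fold) and Npr3 1448024_at (1.74-fold) came next.

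For Rgs2 the same 2 arrays differed by 0.22 at most, with values of 0.22, 0.03, 0.08 and 0 on its 4 probe sets. Pde3b was higher with sulfuretin than with butein by 0.32 and Pde4d by 0.25. Npr2, Pde3a and Prkg1 read exactly the same on both arrays. With 1 array for each compound no interval of these differences can be given, so that the near equality of Rgs2 does not show that the compounds act alike on it.

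**Figure D3:**
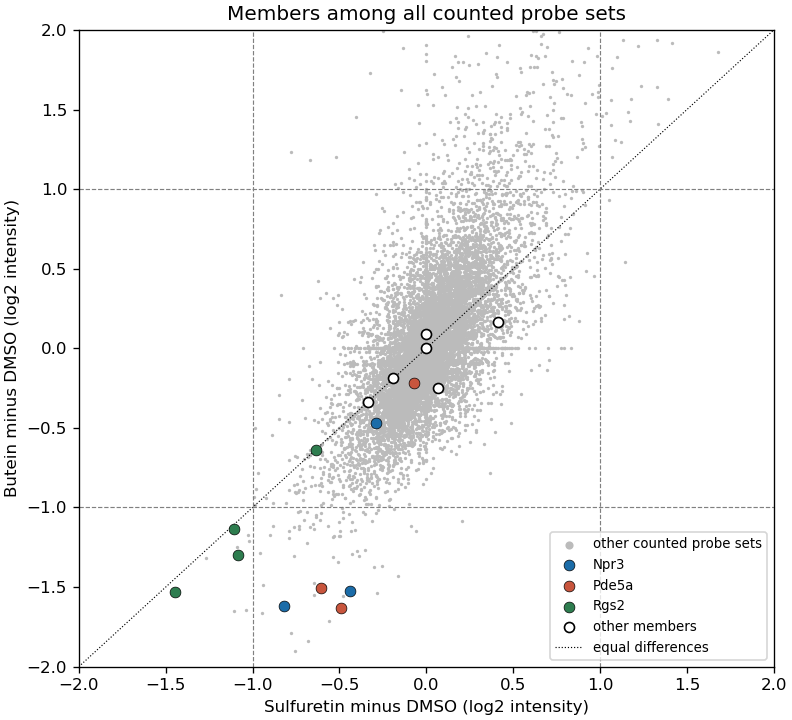
Butein minus DMSO (vertical axis) against sulfuretin minus DMSO (horizontal axis), in log2 intensity, for all counted single-gene probe sets in grey and the members in colour, with dashed lines at 2-fold and a dotted line of equal differences. The axes end at 2 and leave out 94 of the 22340 probe sets, no member among them. Rgs2 lies on or near the dotted line and the brighter Npr3 and Pde5a probe sets lie below it. Both axes use the same DMSO array.

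The solvent arrays belong to different sets and differed from each other over the whole array. As deposited, 5 of the 16 counted member probe sets were at least 2-fold higher in DMSO1 than in DMSO, against 28.1% of all, and 0 were lower, against 0.613% of all. The 5 were Npr2, 2 of Npr3, 1 of Pde5a and 1 of Rgs2. The sorted values of the 3 arrays of the first set lay within 0.12 of each other and those of the second pair within 0.137, whereas arrays of different sets were up to 0.961 apart, so levels are not compared across sets. The median DMSO1 minus DMSO difference was 0.43 for the members and 0.65 for all counted probe sets. The members' count of 5 among 16 is near the 28.1% of the array as a whole. With joint quantile normalization of all 5 arrays, the DMSO1 minus DMSO difference was -0.15, 0.43 and 1.92 on the 3 Npr3 probe sets in the order given above. It was -0.44, 0.82 and -0.21 on those of Pde5a and 0.62, 0.04, -0.16 and 0.15 on those of Rgs2. It was 0.66 for Npr2 and -1.08 for Pde3a 1431913_a_at, the 1 member probe set past 2-fold lower. In size, the gap at Npr3 1450286_at exceeds all 3 treatment differences of that probe set, the gaps at Pde5a 1455970_at and 1460118_at exceed their sulfuretin and resveratrol differences, and those at Npr3 1448024_at, Pde5a 1458341_x_at and Rgs2 1419248_at exceed their resveratrol differences. For Npr2 and Pde3a 1431913_a_at the gap exceeds every treatment difference.

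Genes whose differences over the 3 treatments lay nearest to those of Npr3, Pde5a and Rgs2 were found by Euclidean distance between the 3 log2 differences, among 11803 other genes, each on its brightest probe set. Because butein and sulfuretin share a control, the measure has fewer than 3 independent parts. Nearest to Npr3 were Lmo7 (distance 0.30), Tspyl4 (0.31), Cemip (0.39), Fam107a (0.46) and Plac8 (0.50). Lmo7, for example, read 25.0 with butein and 47.2 with sulfuretin, against 60.3 in DMSO, and 74.1 with resveratrol, against 69.4 in DMSO1. Nearest to Pde5a were Fam107a (0.15), Lrrc17 (0.22), Plscr2 (0.22), Abcd2, the gene of a peroxisomal fatty acid transporter (0.34), and Hdhd3 (0.39). Fam107a read 125 with butein and 264 with sulfuretin, against 368 in DMSO, and 329 with resveratrol, against 384 in DMSO1.

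Nearest to Rgs2 was Vgll4, which encodes a cofactor of TEAD transcription factors, at a distance of 0.14. It read 59.3 with butein and 65.6 with sulfuretin, against 134 in DMSO, and 192 with resveratrol, against 234 in DMSO1. Thrsp, a gene of lipid synthesis, followed at 0.41, then Ldb3 (0.45), Samd5 (0.45) and Gas2 (0.51). Fam107a was the gene named for both Npr3 and Pde5a, and none was shared with Rgs2.

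The wider pathway was followed through 10 lists with 118 gene names besides the members, of which 103 were measured and 73 counted, each gene by its brightest probe set. Of these 73, 0 were at least 2-fold lower and 4 higher with butein, against 0.297% and 2.03% of 12439 counted genes. With sulfuretin 0 were lower and 0 higher, against 0.0482% and 0.193% of genes. With resveratrol 0 were lower and 1 was higher, against 0.0643% and 0.0804% of genes. Sulfuretin minus butein gave 3 lower and 0 higher, against 1.04% and 0.0965% of genes. The lists were written with earlier results of these data known, so nothing is read from these counts.

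Most genes that make cyclic GMP were dim. In the list of natriuretic peptides and their processing 3 of 6 measured genes were counted and none passed 2-fold, while Nppa and Nppc, the atrial and C-type peptide genes, and Corin, the gene of the protease that activates the atrial peptide, were under the counting level. Mme, the gene of neprilysin, which degrades these peptides, read 391 with butein and 542 with sulfuretin, against 630 in DMSO, and 663 with resveratrol, against 748 in DMSO1. Furin, a gene of another processing protease, read 31.0 on all 3 arrays of the first set. Of the soluble guanylate cyclase and nitric oxide synthase genes, Gucy1a1, Gucy1a2 and Gucy1b1 were not counted. Nos1, Nos2 and Nos3 were counted at low levels and were exactly equal with butein, with sulfuretin and in DMSO. Nos2 read 7.83 on those arrays and was counted through the second set only. No other guanylate cyclase gene of the 3 measured was counted.

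Of 18 other phosphodiesterase genes measured, 12 were counted and none passed 2-fold. Among all counted genes 0.297% were at least 2-fold lower and 2.03% higher with butein, which leaves little room for a call among 12. Pde5a was the only phosphodiesterase gene past 2-fold, but it was picked for its fall, so nothing is read from that. With butein 3 of the 12 were lower, 5 higher and 4 equal, with a median of 0. By the mean log2 level over the 5 arrays the brightest were Pde6d and Pde7a, the second of which encodes an enzyme of cyclic AMP breakdown. Pde7a read 83.0 with butein and 66.5 with sulfuretin, against 60.3 in DMSO, and 76.8 both with resveratrol and in DMSO1. Pde6d read 79.3 with butein and 88.1 with sulfuretin, against 88.1 in DMSO, and 105 with resveratrol, against 111 in DMSO1. Pde2a, which encodes a phosphodiesterase that cyclic GMP stimulates, was about as bright by its mean. It read 48.3 with butein and 46.3 with sulfuretin, against 49.97 in DMSO, and 110 with resveratrol, against 109 in DMSO1.

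Of 18 other RGS genes measured, 10 were counted and none passed 2-fold in any treatment. Their median was 0 with butein, 0 with sulfuretin and 0.053 with resveratrol. The brightest was Rgs3, at 115 with butein and 96.3 with sulfuretin, against 115 in DMSO, and 232 with resveratrol, against 192 in DMSO1. Next was Rgs19, which read 64.0 on all 3 arrays of the first set and 84.8 on both of the second. Among all counted genes 0.297% were at least 2-fold lower and 2.03% higher with butein. With sulfuretin 0.0482% were lower and 0.193% higher, and with resveratrol 0.0643% and 0.0804%. Such shares leave little room for a call among 10 genes, and Rgs2 was picked for its low readings. Nothing is read from the contrast between Rgs2 and its relatives.

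None of the 13 counted kinase and anchor genes passed 2-fold in any treatment. With butein 9 of the 13 read below DMSO, with a median of -0.13, where 34.9% of all counted probe sets did so. With sulfuretin 10 of the 13 read below DMSO, with a median of -0.08, against 32.2% of all counted probe sets. These shares are not like for like, as the 13 are genes on their brightest probe set. Exactly equal to DMSO were 2 of the 13 with butein and 3 with sulfuretin, against 33.4% and 35.6% of all counted probe sets. Prkaca, the gene of a catalytic subunit of protein kinase A, read 534 with butein and 652 with sulfuretin, against 742 in DMSO, and 675 with resveratrol, against 777 in DMSO1. Prkar1a, the gene of a regulatory subunit, read 389 with butein and 466 with sulfuretin, against 497 in DMSO, and 777 with resveratrol, against 787 in DMSO1. The 8 counted adenylate cyclase genes had a median of 0 in each treatment. Among them Adcy1 and Adcy2 read 7.32 and 7.83 on each array of the first set and were counted through the second set only. Adcy6, the brightest of them, read 216 with butein and 252 with sulfuretin, against 263 in DMSO, and 192 on both arrays of the second set, and Adcy5 read 54.6 with both compounds, against 60.3 in DMSO. In the list of receptors and G proteins 5 of 7 measured genes were counted, led by Gnas, the gene of the stimulatory G protein, at 1809 with both compounds, against 1964 in DMSO, and by Gnai2 at 365 with butein and 385 with sulfuretin, against 418 in DMSO. The beta-adrenergic receptor genes were not analysed here.

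Some genes that respond to cyclic AMP were higher with butein. Of 10 counted genes 4 were at least 2-fold higher, where 2.03% of all counted genes were. Of the 10, 8 read above DMSO, with a median of 0.48. Among all counted probe sets 31.8% did so, a share over probe sets and not over genes on their brightest probe set. The list was written with earlier results of these data known, so the choice of genes bears on these counts and nothing is read from them. The relatives of Nr4a1 were not higher with butein: Nr4a2 read 23.7 on all 3 arrays of the first set, and Nr4a3 read 19.3 with both compounds, against 20.5 in DMSO. Dusp1, the gene of a MAP kinase phosphatase, read 667 with butein and 105 with sulfuretin, against 101 in DMSO. The nuclear receptor gene Nr4a1 read 372 with butein and 76.8 with sulfuretin, against 74.0 in DMSO. The AP-1 gene Fos read 230 with butein and 31.1 with sulfuretin, against 46.0 in DMSO. These genes also respond to stress and growth signals. With resveratrol Nr4a1, at 134 against 63.7 in DMSO1, was the 1 past 2-fold, and the median of the list was 0.18. Dusp1 read 248 with resveratrol, against 145 in DMSO1, and Fos 45.6, against 30.8, while 1 of the 10 genes was lower. With sulfuretin the median was 0.05 and none passed.

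In the list of substrates and effectors of protein kinases G and A, 10 genes were counted and 1 passed 2-fold with butein. This was Crem, which encodes a cyclic AMP responsive transcription modulator and is also in the list above, at 42.3 with butein and 28.8 with sulfuretin, against 20.9 in DMSO, and 60.4 with resveratrol, against 59.6 in DMSO1. The brightest members of that list, the lipolysis genes Pnpla2 and Abhd5, were at 534 and 541 with butein and at 581 and 482 with sulfuretin, against 638 and 518 in DMSO.

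**Figure D4:**
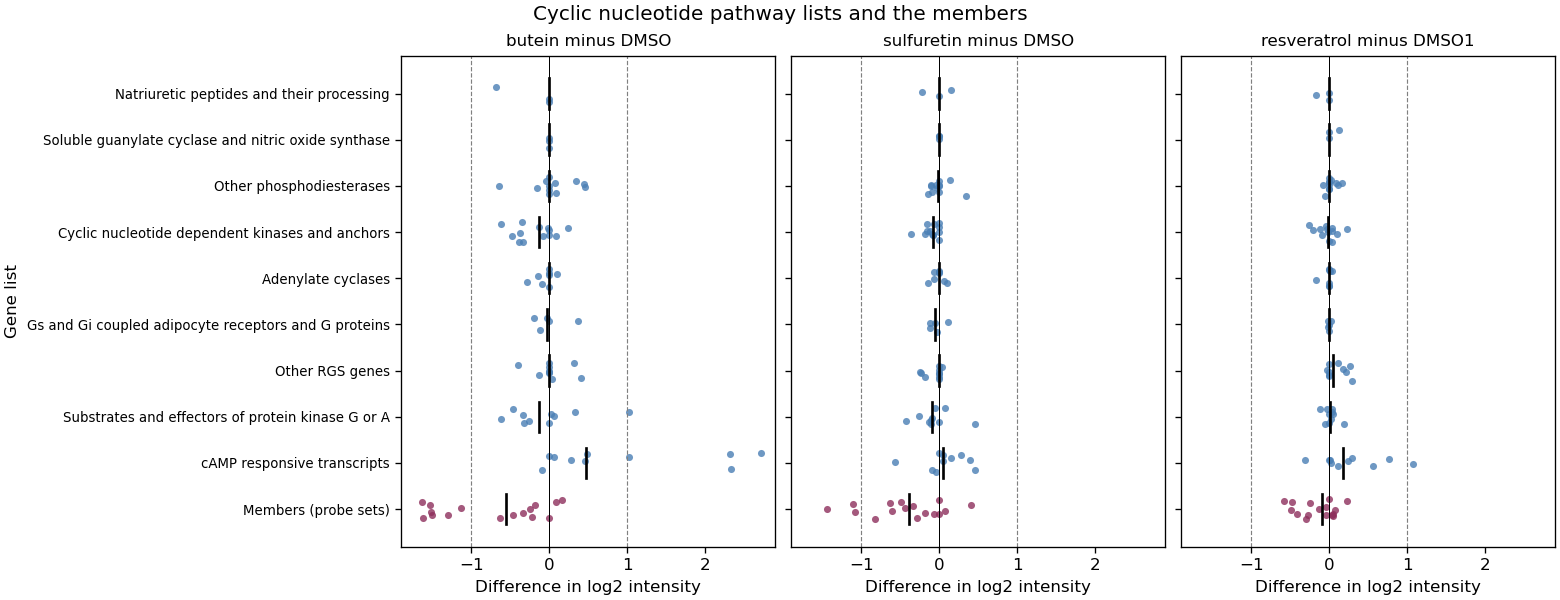
Difference in log2 intensity of counted genes in 9 of the 10 pathway lists (points, brightest probe set of each gene; bars, medians), with the 16 counted member probe sets in the bottom row and dashed lines at 2-fold. One list, other guanylate cyclases, had no counted gene. Points beyond 2-fold upward lie in the cyclic AMP list and, for Crem, in the substrate list, while those beyond 2-fold downward lie in the member row.

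The cultures carried adipocyte markers, and some markers of other mesenchymal cells besides. Of 8 measured adipocyte markers 7 were counted, with Fabp4 between 7338 and 9340 and Adipoq between 6122 and 7202 over the arrays. Their summed intensity was 17624 with butein and 19882 with sulfuretin, against 20033 in DMSO, and 18552 with resveratrol, against 19760 in DMSO1. Most of each sum was Fabp4 and Adipoq. With butein all 7 counted markers were lower, with a median of -0.23 and a lowest difference of -0.49. With sulfuretin 3 were lower and 4 higher, and with resveratrol all 7 were lower, with a median of -0.11. Of all counted probe sets, not genes, 34.9%, 32.2% and 33.5% were lower in these comparisons. Of 5 measured preadipocyte and fibroblast markers 3 were counted, with Pdgfra between 353 and 387 and Col1a1 between 501 and 708 over the arrays, and Dlk1 and Cd34 were not. The skeletal muscle gene Acta1 read 45.3 with butein and 52.6 with sulfuretin, against 71.1 in DMSO. Its list did not move with it, as Ckm was at -0.02 with both compounds and Myod1 and Myog were not counted. The cartilage collagen gene Col2a1 read 25.8 with butein and 34.6 with sulfuretin, against 44.4 in DMSO. In the same list Sp7 read 20.2 with butein, with sulfuretin and in DMSO, and Acan was not counted. Of 5 endothelial markers Pecam1, Cdh5, Tek and Tie1 were under the counting level, as were Ptprc, Adgre1 and Itgam among 5 macrophage and blood markers. The others were counted, with Kdr between 8.95 and 15.0 and Csf1r between 15.2 and 21.1 over the arrays. Cd68 read 7.57 with butein and 6.83 with sulfuretin, against 5.65 in DMSO, and 9.50 with resveratrol and in DMSO1. Of 7 smooth muscle and pericyte markers 4 were counted, Myh11, Cnn1 and Rgs5 were not, and no marker read 0. The sum of that list, nearly all of it Acta2, was 4270 with butein and 4925 with sulfuretin, against 6112 in DMSO, and 4384 with resveratrol, against 3925 in DMSO1. Against DMSO the difference of Acta2 was -0.53 with butein and -0.31 with sulfuretin, and that of Tagln was -0.54 with butein and -0.36 with sulfuretin. The other counted markers of the list did not move with them, as Des was at -0.09 with butein and 0 with sulfuretin, and Cspg4 at 0 with both. Pde5a and Prkg1 are known from smooth muscle, and the part of such cells in the Pde5a differences was not tested.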

How the data were processed

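Total RNA of 5 cultures was measured, 1 array per group. The authors deposited intensities on a linear scale, made with RMA per the submitters' processing notes; its version is not given in the sources used here. That scale was read from the values, log2 was taken and no pseudocount was added. Sorted values coincide nearly within DMSO, butein and sulfuretin and within DMSO1 and resveratrol, so each compound was set against the control of its own set. The number of arrays limits the precision, and no test was run. Symbols were updated by gene ID through RefSeq (GRCm38.p6), which held 34741 of 34945 single-gene probe sets; 932 probe sets name several genes and 9160 none here. A probe set or gene was counted when its highest log2 value reached the median probe set mean (intensity 8.39), and called at 2-fold.

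All 26 member probe sets are reported. The named pathway genes are up to 3 past 2-fold per list and treatment, otherwise the 2 brightest; the genes like Npr3, Pde5a and Rgs2 are the 5 nearest each, without clone names. Genes at or under the floor and markers named beyond this illustrate counts and were picked after their values were seen. The members and lists were chosen with earlier results of these data known. Tried besides were folds of 1.5 and 3, dropping the floor or raising it to percentile 75, joint quantile normalization, centring, loess (span 0.4), a pseudocount of 8, the other or both DMSO arrays, and leaving out _s_at and _x_at probe sets; a floor on the mean was added after seeing the data. Calling at 2-fold, with and without quantile normalization or loess, was tried on a simulated pair of arrays with known changes. That simulation had no exactly equal values and no second set of arrays, and the other steps were not tried on it. Protein sequences were not used here. Computation used pandas 2.3.3 with numpy 2.4.6, statsmodels 0.14.6 for loess, scipy 1.17.1 and, for figures, matplotlib 3.10.9, all under Python 3.11.15.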

Additional observations from a re-analysis of the deposited data

How the results depend on the processing

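With 1 array per group no value below has an error, and the cause of each shift was not tested unless the setting itself gives it. The count of member probe sets at least 2-fold lower with butein was 7 and stayed within 1.5 times of that in all settings but the 3-fold criterion, which left 2. With sulfuretin the count of 3 became 6 at 1.5-fold and 0 at 3-fold. With joint quantile normalization it became 6 against the other DMSO array and 5 against the mean of both. With resveratrol, joint quantile normalization with the other DMSO array gave 1 lower and 1 higher, and the mean of both gave 1 higher. The 2 probe sets higher with sulfuretin than with butein became 4 at 1.5-fold, 0 at 3-fold and 0 with a pseudocount of 8. Between DMSO1 and DMSO, 1 was lower after quantile normalization or loess, and the 5 higher became 2 at 3-fold, 1 after quantile normalization, 2 after centring, 1 after loess and 3 with the pseudocount.

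The median of the members moved with the floor and with the scaling, and joint quantile normalization changed both, since 14 in place of 16 member probe sets were then counted. With butein, -0.55 became -0.145 with no floor, -1.30 with the floor at percentile 75 and -1.14 with the floor on the mean, an alternative chosen after seeing the data. It became -0.877 with joint quantile normalization, -1.07 with the other DMSO array besides and -1.17 with the mean of both. With sulfuretin, -0.39 became -0.0354 with no floor and -0.735 with the other DMSO array. With resveratrol, -0.086 became 0 with no floor and -0.245 with either the floor at percentile 75 or that on the mean. It was -0.171 with joint quantile normalization, -0.215 with the other DMSO array, -0.171 with both, and -0.0426 without _s_at and _x_at probe sets. The sulfuretin minus butein median of 0.16 became 0 with no floor, 0.245 with the floor at percentile 75 and 0.0816 with the pseudocount. The DMSO1 minus DMSO median of 0.43 became 0.0004 with quantile normalization, 0.163 with centring and 0.0183 with loess.

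No brightest member probe set past 2-fold turned in sign. Pde5a with butein went to -0.99 under joint quantile normalization with the other DMSO array. Under that setting Rgs2 with resveratrol, at -0.24 as deposited, turned to 0.39, and with the mean of both DMSO arrays to 0.08. Under the other DMSO array Pde3a, at -0.34 with butein and with sulfuretin as deposited, turned to 0.70 with butein and 0.71 with sulfuretin, and was -1.02 with resveratrol. Npr2, identical with butein, sulfuretin and in DMSO as deposited, went to -0.70 with butein, -0.68 with sulfuretin and 0.76 with resveratrol.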
